A study of Rattus norvegicus with 10 samples.

Results

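Translation initiation and elongation factors are the proteins that load ribosomes onto mRNA and move them along it. Their transcripts were compared between axons of adult and of embryonic rat sensory neurons. The genes were all those with a single symbol in the array platform's annotation that begins with Eif1 to Eif6, Eef1 or Eef2. This gave 60 genes of 14217, and each was represented by its brightest probe set, by the mean of the 10 arrays. A further 5 probe sets of factor genes carried several symbols and were not used. All 60 genes were found by gene number in the RefSeq rat gene table, and 24 of them had more than 1 single-symbol probe set.

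The series measured RNA from axons of dorsal root ganglia, the ganglia that hold the cell bodies of sensory neurons, on 10 Affymetrix rat expression arrays. One group was 5 samples from adult rats and the other was 5 samples from rat embryos at embryonic day 16. In both groups whole pieces of ganglion were grown for 4 days in chambers with compartments, and outgrown axons over 1 cm long were taken from the outer one. No strain, sex, treatment or adult age was given in the labels, and whether several animals contributed to one sample was not given in the sources used here. Explants also hold glia, fibroblasts and immune cells, and cells that migrate out with the axons would be collected with them. In bulk samples of this kind, fewer cells of a type and less RNA per cell cannot be told apart.

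Initiation begins when eIF2 carries the initiator tRNA to the small ribosomal subunit, where eIF1, eIF1A, eIF3 and eIF5 help to hold it. The eIF4 factors bind the mRNA cap, unwind the leader and join the mRNA to eIF3, and the eIF4E-binding proteins block that step unless mTORC1 phosphorylates them. Stress kinases phosphorylate eIF2 and lower initiation, while eEF1 delivers tRNAs and eEF2 moves the ribosome during elongation. Sensory axons are known to translate mRNA locally during growth and after injury, and mRNAs of the translation machinery have been described in axons.

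Many mRNAs of this machinery start with a C followed by a run of pyrimidines, the 5′ terminal oligopyrimidine motif through which mTORC1 controls their translation. The windows below run from 10 bases before the annotated start to 20 bases from it, on the transcribed strand, and were taken from RefSeq promoter sequences of build GRCr8. Capitals mark a C followed by at least 5 pyrimidines, the longest such run in the window. They are shown for members described below that do and do not hold a run, including the elongation factors, 2 eIF3 subunits and the X and Y copies of the eIF2 gamma gene.
Eef1a1, chr8:88225050-88225079, minus strand: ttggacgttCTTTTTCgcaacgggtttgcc
Eef1a2, chr3:188652614-188652643, minus strand: gggtacatctctgcagctgcgtCCTCTCgg
Eef1b2, chr9:72074081-72074110, plus strand: ggccggtcccggCCCTTTTTCTCCCTCagc
Eef2, chr7:9189219-9189248, minus strand: ccgcagccgccgccatcgtcggcgcgcttc
Eif3f, chr1:172369052-172369081, plus strand: cccttccgttctagCCTCTCTCTTTCTCgg
Eif3m, chr3:111897174-111897203, minus strand: caccgtgtggtaccgCTCCTTTTCCggtcg
Eif2s3, chrX:62933680-62933709, minus strand: cagccgagcattttCCTTTTCTCTCTgagc
Eif2s3y, chrY:944643-944672, plus strand: tctttcgtgagcaagatggcgggcggagaa

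Start windows were present for 55 of the 60 genes, with 58 windows in all. A run was found in 17 of the 58 factor windows (29.3%) and in 6797 of all 33469 windows of that length (20.3%). The match is a description of these letters, and a window without one says only that they are not in it. The median adult minus embryonic difference was -0.10 on the log2 scale for the 17 genes with a run and -0.21 for the 38 without, with 9 of 17 and 25 of 38 genes below 0.

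The arrays of the series fell into classes that matter for every value below. The spread of values within an array, as a standard deviation over all probe sets, was 2.07 and 2.05 on adult arrays 4 and 5 and 1.95 and 1.96 on embryonic arrays 1 and 5, here called wide. On the other arrays, here called narrow, it was 1.49 to 1.63 in adult and 1.67 to 1.70 in embryonic samples. Hybridisation controls averaged 9.15 and 10.50 on wide adult arrays, 12.13 to 12.83 on narrow adult ones, and 10.55 to 12.42 on embryonic arrays. Poly-A spike controls were at 7.07 to 10.91 on adult arrays and 1.96 to 2.56 on embryonic arrays, so this part of the labelling and the stage cannot be told apart. Of 9 markers of sensory axons, 4 were called lower in adult samples and 0 higher, with list means of 6.11 to 8.36 on adult and 7.63 to 10.38 on embryonic arrays. Of 10 macrophage markers, 7 were called higher, with list means of 7.11 to 8.76 on adult and 3.25 to 5.69 on embryonic arrays. Fibroblast markers averaged 6.67 and 6.92 on adult arrays 4 and 5, 3.04 to 5.21 on adult arrays 1 to 3 and 3.61 to 5.10 on embryonic arrays, and Fbln1 was below background on all 10. Schwann cell markers averaged 4.82 to 7.05 on adult and 4.57 to 5.46 on embryonic arrays, with 0 of 8 called. The part of these cells in the differences below was not tested.

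Transcripts of the factors were detected in the axon samples of both stages. The part of other cells in this detection was not tested. A gene was taken as above background when it exceeded the 95th percentile, on that array, of 97 probe sets for genes that belong to unrelated tissues such as liver, pancreas or retina. On all 5 adult arrays 33 of the 60 factors were above this level (23.2% of all genes), and on all 5 embryonic arrays 43 were (32% of all genes). On all 10 arrays 30 factors were above background (17.9% of all genes), and 0 were below it on every array (17.6% of all genes). Among eIF3 subunits, 8 of 11 were above background on all adult arrays and 11 of 11 on all embryonic arrays. In the eIF2 group, which holds the eIF2 and eIF2B genes with Eif2a and Eif2d, the counts were 3 of 11 and 7 of 11. Without the Y-linked Eif2s3y they were 3 of 10 and 7 of 10.

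No factor passed the test between stages over all 10 arrays. In limma's fit with Benjamini-Hochberg adjustment, 0 of 60 were called higher in adult axons (0.612% of all genes) and 0 lower (0.647%; 1.26% either way). The kinase gene Eif2ak2 was the 1 factor of 60 with an unadjusted p under 0.05, against 13.3% of all genes. The stages overlapped for every one of the 60, while they did not overlap for 3.54% of all genes. The median difference of the factors was -0.21 on the log2 scale, against -0.00086 for all genes, and 38 of 60 lay below 0 (50.1% of all genes). Under cyclic loess scaling the direction turned, with a factor median of 0.053 and 29 of 60 below 0. These results do not show equal levels: the 95% interval of the difference lay within 1 log2 unit of 0 for 1 factor, Eef1akmt4, against 25.5% of all genes. Eef1akmt4 itself was above background on only 2 adult and 3 embryonic arrays. The smallest difference among all called genes was 1.35 in size.

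**Figure D1:**
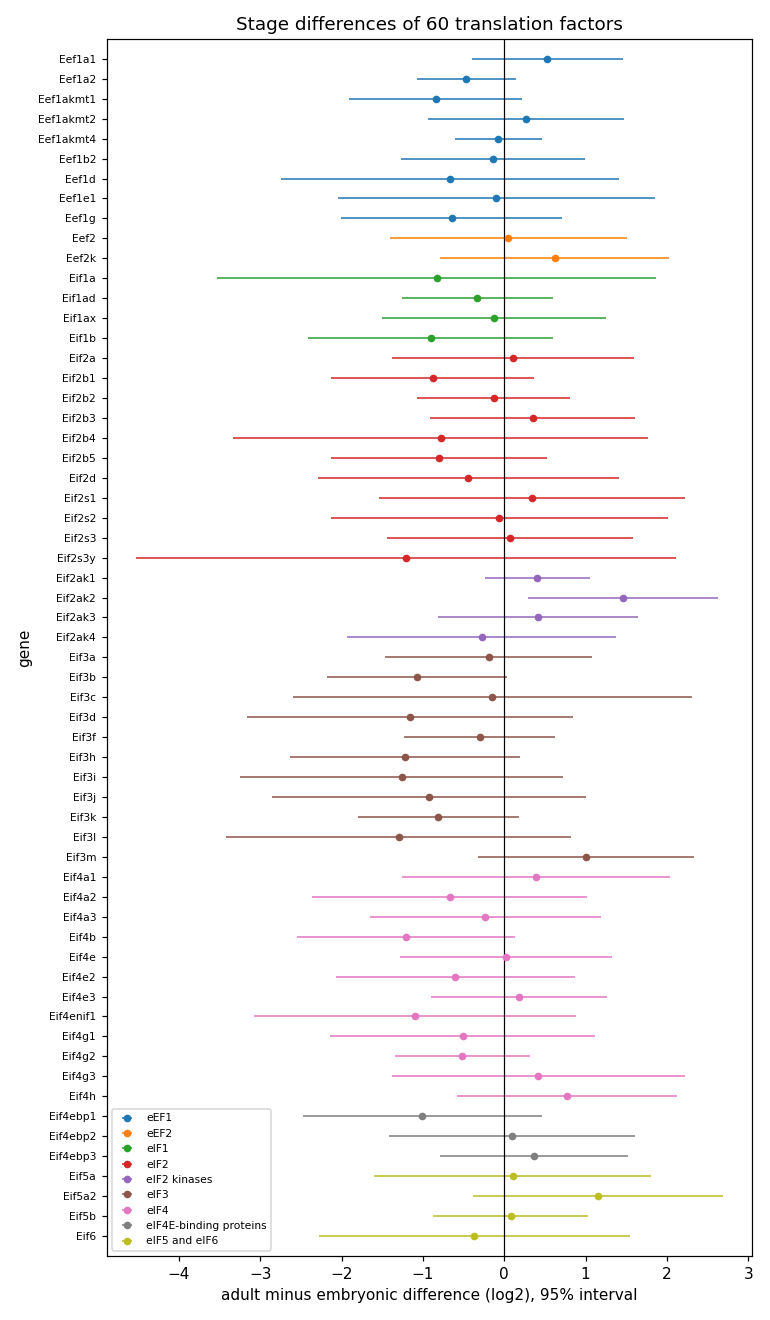
Adult minus embryonic differences of the 60 factors on the log2 scale, one row per gene and coloured by complex, with points for limma's estimate and bars for its 95% interval (5 arrays in each stage). The interval leaves out 0 only for Eif2ak2, and 10 of the 11 eIF3 points lie below 0.

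The level of the factors differed more among adult than among embryonic arrays. The median level over the 60 factors was 4.90 to 5.53 on adult arrays 1 to 3 and 7.35 and 7.49 on adult arrays 4 and 5, while the 5 embryonic arrays lay between these, at 6.17 to 6.93. For all genes the same medians were 3.50 to 3.62, 4.16 to 4.22 and 3.60 to 3.98. On adult arrays 4 and 5, 59 of the 60 factors were above background, against 40 to 49 on adult arrays 1 to 3 and 46 to 59 on embryonic arrays. The arrays differed in the same way over all 14217 genes, of which 10029 and 9789 were above background on adult arrays 4 and 5, 4998 to 6366 on adult arrays 1 to 3 and 6133 to 9282 on embryonic arrays. The background level itself was 2.70 and 2.91 on adult arrays 4 and 5, 3.87 to 4.11 on adult arrays 1 to 3 and 3.01 to 3.92 on embryonic arrays. Within the adult group the factor median thus lay on both sides of the embryonic range.

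**Figure D2:**
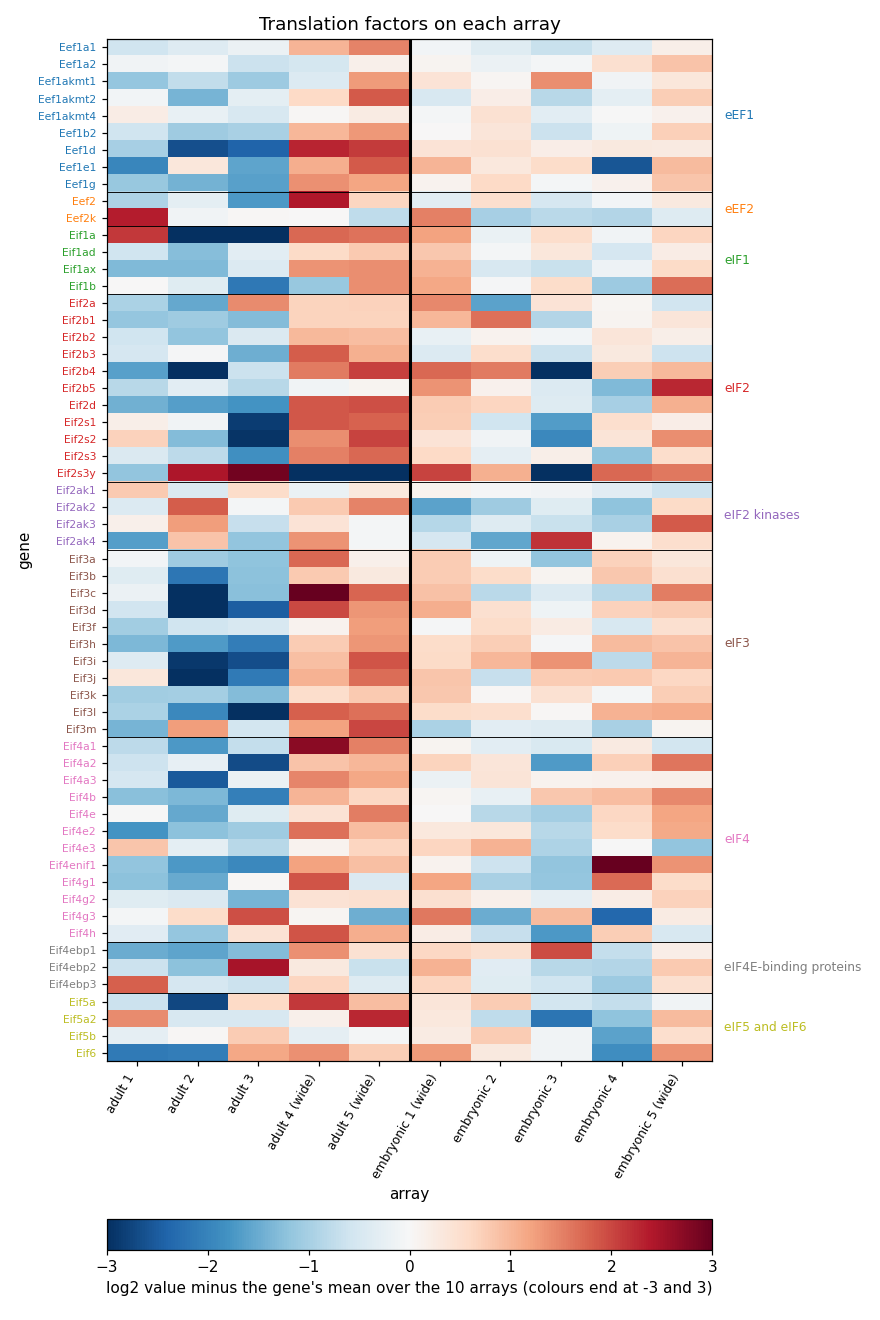
Value of each factor on each array (columns, adult left of embryonic) minus that gene's mean over the 10 arrays, in log2 units and grouped by complex. Adult arrays 1 to 3 are mostly blue (below the mean) and adult arrays 4 and 5 mostly red (above it), with exceptions such as Eif2s3y, which is at 1.55 and 1.53 there.

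Among the elongation factors, Eef1a1 encodes the GTPase that brings aminoacyl-tRNA to the ribosome. It was at 10.82, 11.03, 11.26, 12.44 and 12.92 on adult arrays 1 to 5, against 11.35, 11.08, 10.76, 11.03 and 11.60 on embryonic arrays 1 to 5. Adult arrays 4 and 5 lay above every embryonic array, and the other 3 lay within the embryonic range. The difference was 0.53 ± 0.42 (SE; 95% interval -0.40 to 1.46; limma adjusted p = 0.803). A probe set of Eef1a1 marked as matching several sequences gave 0.71 ± 0.35, and near-identical copies of this gene in the genome make both values uncertain. Under cyclic loess scaling the difference was 1.07 and Eef1a1 was the 1 factor called higher (adjusted p = 0.0319, against 0.872% of all genes). Its adjusted p ranged from 0.0319 to 0.954 over 23 alternatives. Eef1a2, the form of muscle and mature neurons, was above background on 2 adult and 3 embryonic arrays, with means of 3.20 ± 0.33 and 3.67 ± 0.42 (SD, n = 5 each).

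The exchange factor of eEF1A, which reloads it with GTP, is built from Eef1b2, Eef1d and Eef1g. Eef1b2 averaged 10.33 ± 1.13 in adult and 10.46 ± 0.51 in embryonic axons (SD, n = 5 each; difference -0.13, 95% interval -1.26 to 1.00). Eef1g, the gamma subunit, was at 8.33, 8.06, 7.83, 10.84 and 10.65 on adult arrays 1 to 5, against 9.41 to 10.29 on embryonic arrays. Eef1d, the delta subunit, was at 5.49, 3.84, 4.07, 8.78 and 8.58 on adult arrays 1 to 5, against 6.69 to 6.95 on embryonic arrays. For both genes adult arrays 1 to 3 lay below all embryonic arrays and adult arrays 4 and 5 above all of them. The difference over all 10 arrays was -0.66 ± 0.94 for Eef1d (SE; limma adjusted p = 0.927) and -0.64 ± 0.61 for Eef1g (adjusted p = 0.855). Eef1akmt1, which methylates eEF1A, averaged 4.74 ± 0.99 in adult and 5.59 ± 0.58 in embryonic axons.

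Eef2, the translocase, was at 7.96, 8.57, 7.15, 11.27 and 9.52 on adult arrays 1 to 5, against 8.36 to 9.38 on embryonic arrays. Its difference was 0.05 ± 0.66 (SE; 95% interval -1.41 to 1.50; limma adjusted p = 0.993). Eef2k encodes the kinase that inactivates eEF2. It was at 6.10 on adult array 1 and 2.98 to 3.77 on the other adult arrays, against 5.24 on embryonic array 1 and 2.75 to 3.35 on the other embryonic arrays. Its probe sets disagreed: the one shown gave 0.62 (limma's unadjusted p 0.352) and another gave -1.15 (unadjusted p 0.0492, adjusted p = 0.505).

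Subunits of eIF3, the scaffold between the ribosome and the cap complex, had the lowest median difference of the complexes. It was -0.92 on the log2 scale, and 10 of the 11 subunits lay below 0, with 0 called and 0 at an unadjusted p under 0.05 in limma's fit. Eif3h, a subunit of the outer part of the complex, was at 7.55, 7.20, 6.82, 9.66 and 10.23 on adult arrays 1 to 5, against 9.45, 9.65, 8.86, 9.86 and 9.75 on embryonic arrays 1 to 5. Adult arrays 1 to 3 lay below all embryonic arrays and array 5 above them, and the difference was -1.22 ± 0.64 (SE; 95% interval -2.64 to 0.19; adjusted p = 0.603). Another probe set of Eif3h gave 1.58, and the mean of its probe sets gave 0.18.

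Eif3b, a core subunit that binds other eIF3 proteins, was at 5.26 to 7.06 on adult arrays 1 to 3 and 8.19 and 7.71 on arrays 4 and 5, against 7.50 to 8.22 on embryonic arrays. It had the smallest unadjusted p of the complex (0.0572 in limma's fit; difference -1.07 ± 0.50, SE; adjusted p = 0.529). Eif3k, a small peripheral subunit, was at 4.97 to 5.26 on adult arrays 1 to 3 and 6.80 and 7.06 on arrays 4 and 5, against 6.22 to 7.09 on embryonic arrays. Eif3i, a core subunit with WD repeats, was at 7.34, 4.84, 5.06, 8.64 and 9.63 on adult arrays 1 to 5, against 6.95 to 9.08 on embryonic arrays. In each of these genes at least 2 adult arrays fell below the embryonic range and the wide adult arrays lay in or above it. Another probe set of Eif3k had a difference of 0.27, against -0.81 for the one shown.

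Eif3f averaged 9.63 ± 0.88 in adult and 9.94 ± 0.42 in embryonic axons (SD, n = 5 each; difference -0.30, 95% interval -1.23 to 0.62). Eif3m, which sits in the same outer module as Eif3f and Eif3h, was the 1 subunit above 0. It was at 6.09, 8.75, 6.93, 8.70 and 9.50 on adult arrays 1 to 5, against 6.53 to 7.58 on embryonic arrays, and the difference was 1.01 ± 0.60 (SE; limma adjusted p = 0.689). For Eif3a and Eif3c, as for Eif3h, another probe set had a larger difference than the one shown. It was -2.36 for Eif3c (unadjusted p 0.00486, adjusted p = 0.175, against -0.15 for the one shown) and -1.58 for Eif3a (adjusted p = 0.405, against -0.19).

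The eIF4 factors of the cap complex had a median difference of -0.37, with 7 of 12 genes below 0. Eif4e, the cap-binding protein, averaged 6.92 ± 1.11 in adult and 6.89 ± 0.93 in embryonic axons (SD, n = 5 each; difference 0.02, 95% interval -1.28 to 1.32). Eif4b, which stimulates the helicase eIF4A, was at 5.12, 5.03, 4.31, 7.38 and 6.99 on adult arrays 1 to 5, against 6.44, 6.15, 7.17, 7.30 and 7.80 on embryonic arrays 1 to 5. Adult arrays 1 to 3 lay below all embryonic arrays, and arrays 4 and 5 lay within their range. The difference was -1.21 ± 0.61 (SE; limma adjusted p = 0.575). Another probe set of Eif4b gave -0.12.

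Eif4a1, the main helicase of proliferating cells, was at 6.38, 5.45 and 6.46 on adult arrays 1 to 3 and 9.89 and 8.68 on arrays 4 and 5, against 6.63 to 7.44 on embryonic arrays. Eif4a2, the helicase paralogue abundant in brain, averaged 8.31 ± 1.48 in adult and 8.98 ± 1.23 in embryonic axons. The scaffold Eif4g1 averaged 4.55 ± 1.34 and 5.06 ± 1.28. Eif4g2, a relative of the scaffold that lacks the part that binds eIF4E, averaged 9.78 ± 0.77 and 10.29 ± 0.36 (all SD, n = 5 each). A second probe set of Eif4g2 had a difference of -1.37 (unadjusted p 0.0244 in limma's fit, adjusted p = 0.378), against -0.51 ± 0.38 (SE) for the one shown. Eif4h, another helicase cofactor, had a difference of 0.77 ± 0.61 (SE; 95% interval -0.58 to 2.12).

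The 3 eIF4E-binding proteins differed in sign. Eif4ebp1, the best known mTORC1 substrate among them, was at 3.88, 3.80, 4.07, 6.75 and 5.84 on adult arrays 1 to 5, against 4.65 to 7.33 on embryonic arrays. Adult arrays 1 to 3 lay below every embryonic array. Its difference was -1.01 ± 0.66 (SE; limma adjusted p = 0.731), that of Eif4ebp2, the main form in brain, was 0.10 ± 0.69, and that of Eif4ebp3 was 0.37 ± 0.52.

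The genes of the eIF2 group had a median difference of -0.13, with 7 of 11 below 0 (-0.096 and 6 of 10 without Eif2s3y). Eif2s1, the alpha subunit that the stress kinases phosphorylate, was at 6.91, 6.62, 3.88, 8.60 and 8.49 on adult arrays 1 to 5, against 5.05 to 7.46 on embryonic arrays. Both wide adult arrays lay above the embryonic range and array 3 below it (difference 0.34 ± 0.85, SE; limma adjusted p = 0.967). Eif2s2, the beta subunit, averaged 8.23 ± 2.05 in adult and 8.29 ± 1.23 in embryonic axons (SD, n = 5 each). Of the exchange factor eIF2B, which recharges eIF2 with GTP, Eif2b1 averaged 4.37 ± 1.01 and 5.25 ± 0.95, and Eif2b5 averaged 3.03 ± 0.42 and 3.83 ± 1.42.

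The gamma subunit of eIF2 has an X-linked gene, Eif2s3, and a Y-linked one, Eif2s3y. Eif2s3y was at 3.95, 7.56, 8.02, 1.55 and 1.53 on adult arrays 1 to 5, against 7.15, 6.20, 1.76, 6.85 and 6.70 on embryonic arrays 1 to 5. It was therefore near the bottom of the scale on adult arrays 4 and 5 and embryonic array 3. Eif2s3 was at 5.99, 5.64, 4.59, 7.94 and 8.15 on adult arrays 1 to 5, against 5.22 to 7.03 on embryonic arrays, and above background on all 10. Each of the 4 probe sets of Xist, the RNA that coats the inactive X chromosome, was highest on adult arrays 4 and 5. The one with the clearest gap was at 6.57 and 5.55 there and at 1.63 to 2.45 on the other 8 arrays. The brightest Xist probe set was also above background on adult array 1, at 4.18, against 5.44 and 4.51 on adult arrays 4 and 5. The labels give no sex, and because the strongest Xist values lie on the wide adult arrays, spread class and the Xist level cannot be told apart there.

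Of the 4 eIF2 kinases, Eif2ak2 had the smallest unadjusted p of all factors. It encodes PKR, which double-stranded RNA activates and interferon induces. It was at 4.04, 6.25, 4.38, 5.24 and 5.94 on adult arrays 1 to 5, against 2.84, 3.36, 4.08, 3.25 and 5.02 on embryonic arrays 1 to 5. The stages overlapped through embryonic array 5 and, more narrowly, embryonic array 3. The difference was 1.46 ± 0.53 (SE; 95% interval 0.29 to 2.63; limma's unadjusted p 0.0188, adjusted p = 0.336), and the gene was above background on 5 adult and 3 embryonic arrays. It was 1.33 within narrow and 1.66 within wide arrays, and its adjusted p stayed between 0.216 and 0.569 over 23 alternatives. The macrophage markers described above also separated the stages, and their part in this value was not tested.

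The other kinases had smaller differences. Eif2ak1, the haem-regulated kinase HRI, had 0.41 ± 0.29 (SE). Eif2ak3, the endoplasmic reticulum kinase PERK, had 0.41 ± 0.56 and was above background on 3 adult arrays and 1 embryonic array. Eif2ak4, the amino acid sensor GCN2, had -0.28 ± 0.75 (limma adjusted p of 0.764 to 0.971 for the 3).

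Among factors of start site selection and subunit joining, limma called 0. The 4 genes of the eIF1 group lay below 0, with a median of -0.58. Eif1a was at 8.64, 2.47, 3.01, 8.24 and 8.15 on adult arrays 1 to 5, against 6.33 to 7.72 on embryonic arrays, so that 3 adult arrays lay above and 2 below every embryonic one. Its other 3 probe sets had differences of 0.65 to 1.42, against -0.83 for the one shown. Eif5b, the GTPase that joins the ribosomal subunits, averaged 8.13 ± 0.42 in adult and 8.05 ± 0.93 in embryonic axons (SD, n = 5 each; difference 0.08, 95% interval -0.88 to 1.03). The other 2 probe sets of Eif5b, both weaker, gave 0.94 and 0.99. Eif5a, which carries the modified amino acid hypusine, averaged 7.68 ± 1.84 and 7.57 ± 0.62, and its paralogue Eif5a2 had a difference of 1.15 ± 0.70 (SE; limma adjusted p = 0.690). Another probe set of Eif5a2 gave -0.82, and the one shown was above background on only 3 adult and 2 embryonic arrays. Eif6, which keeps large subunits from joining early, averaged 6.86 ± 1.76 and 7.23 ± 1.31 (SD, n = 5 each).

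The factors lay mostly on opposite sides of 0 in the 2 classes of arrays. On the 6 narrow arrays (3 adult against 3 embryonic) the median difference was -0.74, and 46 of 60 factors were below 0 (53.4% of all genes). There limma called 0 of 60 (1.18% of all genes), with 15 at an unadjusted p under 0.05 (14.5% of all genes). Of these 15, 14 were lower in adult axons and 1, Eef2k, was higher. On the 4 wide arrays (2 against 2) the median was 0.51, and 43 of 60 were above 0. Below 0 were 17 of 60 (48.4% of all genes). Limma called 0 in this small fit, as for all genes (0%), with 14 at an unadjusted p under 0.05 (19.8% of all genes), 12 of them higher in adult axons and 2, Eif2b5 and Eif2s3y, lower. In all, 36 of the 60 had a negative difference on narrow and a positive one on wide arrays. This joint pattern was not counted over all genes, so it is not shown to be particular to the factors.

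The change of the stage difference between classes was fitted as an interaction of stage and class over all 10 arrays, a test added after the data were seen. The classes were set by the spread of the same values, and the factor median exceeded that of all genes on every array. The shares over all genes are therefore no like reference for genes this bright. Brightness and the interaction cannot be told apart here. Limma called 0 of 60 factors (0.0914% of all genes), with 24 at an unadjusted p under 0.05 (12.9% of all genes). The interaction was above 0 for 48 of 60 (54.8% of all genes), including 11 of 11 eIF3 subunits. It was most positive for Eef1d (4.18 ± 0.66, SE; adjusted p = 0.0737), Eif3l (3.66 ± 1.03; adjusted p = 0.259) and Eif4a1 (3.25 ± 0.69; adjusted p = 0.142), which were picked for their size. The eIF3 median was -1.73 on narrow and 0.60 on wide arrays, and 6 of its 11 subunits had an unadjusted p under 0.05 on the narrow ones. The median of the eIF4E-binding proteins had the reverse order, at 0.89 on narrow and -0.44 on wide arrays. Eif4ebp2 and Eif4ebp3 followed this order, but Eif4ebp1 did not, at -2.03 on narrow and 0.52 on wide arrays. For the 17 genes with a pyrimidine run the medians were -0.34 and 0.45, and for the 38 without they were -0.82 and 0.56.

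**Figure D3:**
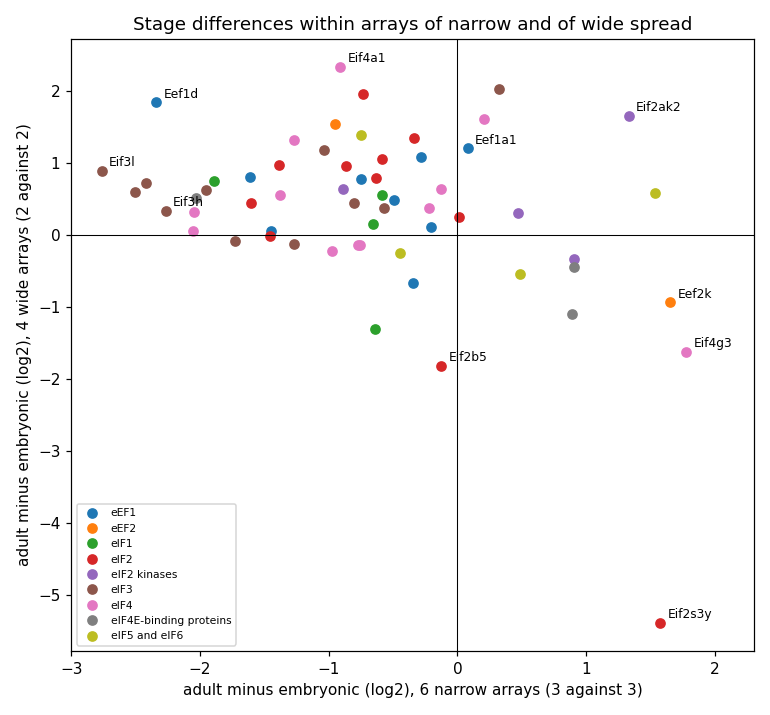
Adult minus embryonic difference of each factor (log2) on the 6 narrow arrays (x axis) and on the 4 wide arrays (y axis), coloured by complex. The upper left part, negative on narrow and positive on wide arrays, holds 36 of the 60 points, a pattern not counted over all genes. Eif2s3y stands alone at the bottom right at 1.58 and -5.38.

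Without adult arrays 4 and 5, which are the wide adult arrays and those with the highest Xist values, 6 of 60 factors were called lower in adult axons (2.75% of all genes) and 0 higher (3.38% of all genes either way). This alternative was chosen after the data were seen. The median difference was -0.97, against -0.06 for all genes, and 48 of 60 factors were below 0. At an unadjusted p under 0.05 there were 25 (19.5% of all genes). Of the eIF3 subunits, the difference was -2.33 for Eif3h (limma adjusted p = 0.00968), -2.88 for Eif3l, a peripheral subunit (adjusted p = 0.0489), and -1.52 for Eif3k (adjusted p = 0.0375). Of the eEF1 exchange factor, it was -2.35 for Eef1d (adjusted p = 0.0207) and -1.71 for Eef1g (adjusted p = 0.0248). For the helicase cofactor Eif4b it was -2.15 (adjusted p = 0.0411). With all 10 arrays the adjusted p of these 6 genes was 0.575 to 0.927, and leaving out any single array gave 0 called factors. On the left-out arrays Eif3l was at 8.41 and 8.26, against 5.66, 4.66 and 2.80 on adult arrays 1 to 3 and 6.64 to 7.72 on embryonic arrays. Weaker probe sets of these genes did not all show a fall. That of Eif3k was at 4.49, 5.56 and 4.04 on adult arrays 1 to 3, against 4.03 to 4.59 on embryonic arrays. That of Eif4b was at 3.45, 3.44 and 5.17, against 3.92 to 7.43, and that of Eif3h at 6.11, 3.64 and 1.72, against 1.66 to 3.22.

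**Figure D4:**
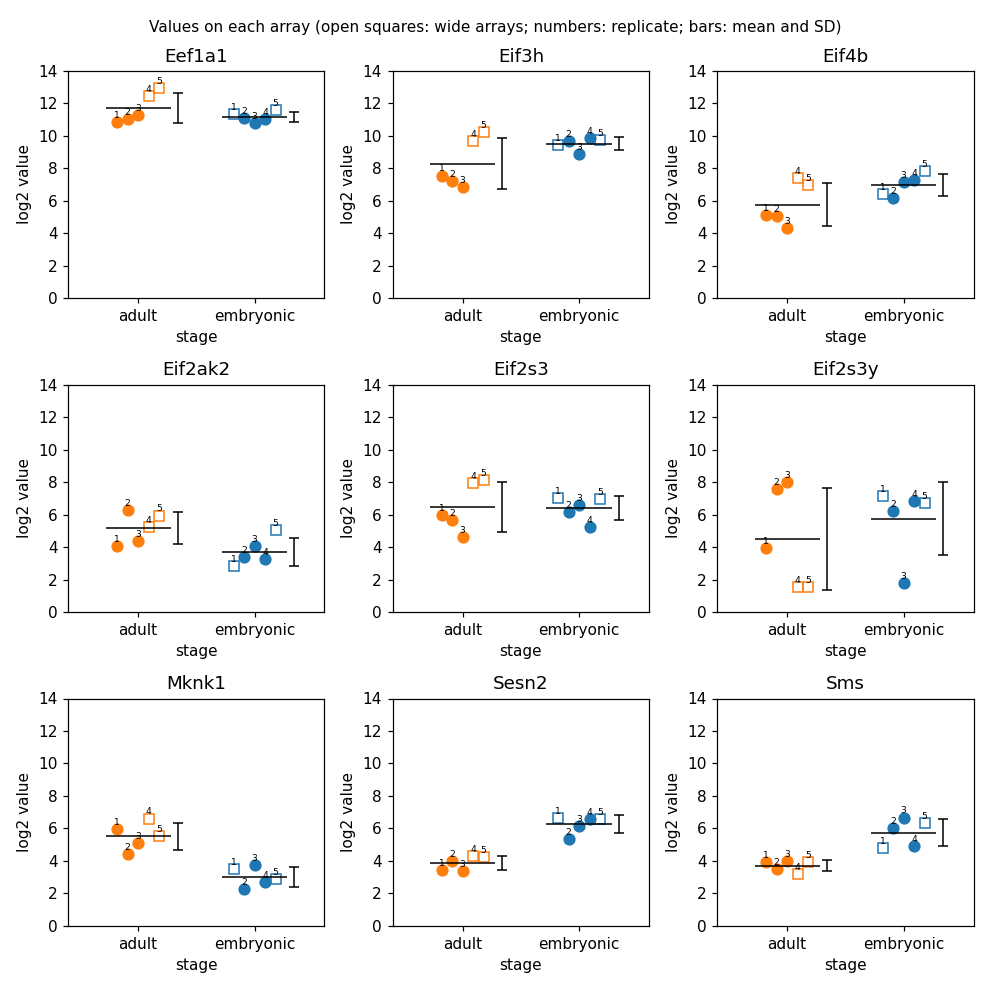
Log2 value on each array for 6 factors and 3 regulators of translation, with adult left of embryonic in each panel, replicate numbers at the points, open squares for wide arrays, and lines and bars for the mean and SD of 5 arrays. Eif3h and Eif4b have adult arrays 1 to 3 below every embryonic array, and for Mknk1, Sesn2 and Sms the stages do not overlap.

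Paralogues were compared by the difference of their log2 values within an array, which cancels a shift common to both where both are above background. Over 5 pairs, a two-sided exact permutation test over all labellings of the 10 arrays (smallest possible p 0.0079) called 0 after Benjamini-Hochberg adjustment, and 0 of 5 had an unadjusted exact p under 0.05. Eef1a2 over Eef1a1 had a stage difference of -0.998 (exact p 0.071, adjusted p = 0.36), with adult arrays 4 and 5 at -9.53 and -9.34 below all others and adult arrays 1 to 3 at -8.46 to -7.49, against -7.83 to -7.13 on embryonic arrays. The stage difference was -0.47 for Eef1a2 and 0.53 for Eef1a1. Since Eef1a2 was above background on 2 adult and 3 embryonic arrays only, this ratio is no measure of the balance of the 2 forms. The adjusted p of this pair ranged from 0.0397, under quantile and cyclic loess scaling, to 0.667, on narrow arrays. Eif4a2 over Eif4a1 had -1.06 (exact p 0.25), Eif5a2 over Eif5a 1.05 (exact p 0.33), Eif4g3 over Eif4g1 0.93 (exact p 0.51) and Eif4e3 over Eif4e 0.16 (exact p 0.87). Eif5a2 was above background on only 3 adult and 2 embryonic arrays, so its ratio has the same limit as that of Eef1a2.

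Genes that act on the factors included 3 that passed limma's test. Of 20 genes in a list of mTORC1 pathway genes and other kinases, 1 was higher (0.612% of all genes) and 0 lower (0.647%) in adult axons. This was Mknk1, a kinase that phosphorylates eIF4E. It was at 5.94, 4.41, 5.11, 6.61 and 5.53 on adult arrays 1 to 5, against 3.49, 2.26, 3.72, 2.69 and 2.88 on embryonic arrays 1 to 5. Every adult array lay above every embryonic one, and the difference was 2.51 ± 0.44 (SE; adjusted p = 0.0254), with 2.26 on narrow and 2.89 on wide arrays. Mknk1 was above background on 5 adult arrays but only 1 embryonic array, so the size of the difference rests on weak embryonic values. The call was lost without adult replicate 1 (adjusted p = 0.0771), adult replicate 4 (0.0539), embryonic replicate 2 (0.0643) or embryonic replicate 5 (0.0733), and held in 15 of 23 alternatives in all. Tsc2, an inhibitor of mTORC1, had -1.51 ± 0.55 (adjusted p = 0.343), and the list's median was -0.28.

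Of 17 genes that phosphorylated eIF2 is known to raise through ATF4 and its partners, 1 was lower (0.647% of all genes) and 0 higher (0.612%). An unadjusted p under 0.05 was found for 6 of them (13.3% of all genes). Sesn2, which restrains mTORC1, was at 3.46, 4.00, 3.41, 4.29 and 4.21 on adult arrays 1 to 5, against 6.63, 5.33, 6.13, 6.60 and 6.55 on embryonic arrays 1 to 5. The stages did not overlap, and the difference was -2.37 ± 0.32 (SE; limma adjusted p = 0.00739), with -2.39 on narrow and -2.34 on wide arrays. Sesn2 was above background on 3 adult and 5 embryonic arrays. It was called in 21 of 23 alternatives, including all 10 omissions of 1 array, and the mean of its probe sets gave -1.07. Nupr1, a stress-induced chromatin protein, did not overlap in the other direction (1.80 ± 0.39; adjusted p = 0.0661). The other 4 of the 6 also had positive differences: 3.11 for the cystine transporter gene Slc7a11, 2.96 for Cebpg and 1.66 for Cebpb, which encode transcription factors, and 1.33 for Gpt2, an alanine aminotransferase (adjusted p of 0.16 to 0.488). The difference of Cebpg was 5.08 on narrow but -0.23 on wide arrays. Slc7a11 was at 8.98, 2.74, 2.40, 9.99 and 6.20 on adult arrays 1 to 5, and above background on 3 adult arrays and 1 embryonic array. The list's median was -0.14, with 9 of 17 genes below 0.

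Of 7 genes of polyamine metabolism and of the hypusine modification of eIF5A, 1 was lower (0.647% of all genes). Sms, spermine synthase, averaged 3.71 ± 0.36 in adult and 5.74 ± 0.85 in embryonic axons (SD, n = 5 each), without overlap. The difference was -2.03 ± 0.40 (SE; limma adjusted p = 0.047), but Sms was called in only 2 of 10 omissions of 1 array (all but those of embryonic replicates 1 and 4 lost it) and 6 of 23 alternatives, with adjusted p of up to 0.348. Sat1, which breaks down polyamines, had 1.45 ± 0.71 (adjusted p = 0.557).

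Of 21 cytosolic aminoacyl-tRNA synthetases and their scaffold proteins, limma called 0 (1.26% of all genes). At an unadjusted p under 0.05 there were 3 (13.3% of all genes). The median was -0.68 and 15 of 21 were below 0. Aimp1, a scaffold of the synthetase complex, had -2.10 ± 0.59 (SE; adjusted p = 0.173). Mars1, the methionine synthetase, did not overlap between stages, at 5.79 to 7.22 on adult and 3.75 to 5.75 on embryonic arrays (difference 1.39 ± 0.43; adjusted p = 0.225). Without adult arrays 4 and 5, 2 of the 21 were called lower (2.75% of all genes). These were Aimp1 (-2.85, adjusted p = 0.0382) and Eprs1, the glutamate and proline synthetase (-4.72, adjusted p = 0.00611). Of 4 termination genes and 5 genes of poly-A binding and its regulators, limma called 0 (1.26% of all genes). At an unadjusted p under 0.05 there were 0 and 0 (13.3% of all genes), with medians of -0.57 and -1.03. Pabpc4, a cytoplasmic poly-A binding protein, was called lower without adult arrays 4 and 5 (-2.41, adjusted p = 0.0265), while over all 10 arrays it had -1.05 (adjusted p = 0.79).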

How the data were processed

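The deposited values are log2 intensities made by the authors with robust multi-array averaging (RMA), which the submitters' processing notes name; its version and options were not given in the sources used here, and the base was read from the range of values. RMA shares information between arrays and compresses weak probe sets. The depth of an array has no counterpart in read counts; precision rests on the number of arrays. Of its 31099 probe sets, 57 were controls; 20826 had 1 symbol, 436 several and 9780 none here.

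Stage differences (adult minus embryonic) were estimated by lmFit and eBayes of limma 3.58.1 (R 4.3.3, two-sided tests) over 31042 probe sets and all 10 arrays, with Benjamini-Hochberg adjustment over all of them at a threshold of 0.05, and the fit was tested on simulated data. Adjusted p-values given for genes come from limma. The replicates are those the labels call biological, and p-values measure the spread between these samples. Arrays were called wide when the standard deviation of their values exceeded 1.78, the middle of its range. The members, gene lists, complexes and the split of arrays were chosen with earlier results of these data known. Genes were named by a rule: in each complex up to 3 with the highest mean and up to 3 with the smallest unadjusted p, the 5 paralogue pairs, a fixed set of regulated factors and kinases, and in each other list the called genes and up to 2 with the smallest p. Other names (Eef1d, Eef1akmt4, Eif3a, Eif3c, Eif3l, Eif3m, Eprs1, Slc7a11, Cebpg, Cebpb, Gpt2) were chosen after their values were seen. Alternatives were 3 scalings, a filter on weak probe sets, array weights, an intensity trend, blocks, other summaries of probe sets, other background levels and omissions of arrays. Sequences are RefSeq's, build GRCr8. Figures used Python 3.11.15 and matplotlib 3.10.9.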

Additional observations from a re-analysis of the deposited data

Results flagged for a closer look

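In 7 of 120 groups of 5 arrays, 1 array stood apart from the other 4 by more than Dixon's 95% limit for 5 samples (a gap of 0.71 of the range), and chance sets apart about 1 group in 20. The arrays below the others were embryonic replicate 4 for Eef1e1 (3.35), embryonic replicate 3 for Eif2b4 (2.74) and for Eif2s3y (1.76), and embryonic replicate 2 for Eif3j (6.06). Those above the others were adult replicate 1 (6.10) and embryonic replicate 1 (5.24) for Eef2k, and embryonic replicate 5 for Eif2ak3 (5.18). The causes were not tested.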

How the results depend on the processing

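The count of 0 factors called in either direction held under quantile and median scaling, the filter on weak probe sets (54 factors left), array weights, an intensity trend, the spread class as a block, narrow arrays alone, other summaries of probe sets and each omission of 1 array. Wide arrays alone called 0 genes of the whole table, so their 0 shows nothing about stability. Cyclic loess scaling gave 1 higher, and leaving out adult replicates 4 and 5 gave 6 lower. The replicate block, with numbers that do not pair the samples (same-number correlations of -0.122, 0.0548, 0.172, -0.111 and 0.276, and 1 of 5 adult arrays most like its own number), gave 0 and 0, and the call of Mknk1 had an adjusted p = 0.056 and that of Sms 0.076 there. The factor median was -0.16 under quantile, 0.053 (29 of 60 below 0) under cyclic loess and -0.23 under median scaling, where the median of all genes moved by under 0.1. The eIF3 median was 0.60 on wide arrays and that of the eIF4E-binding proteins 0.89 on narrow ones. For Eef1a2 over Eef1a1 the stage difference passed under quantile (-1.58) and cyclic loess scaling (-1.54), but Eef1a2 was above background on only 5 of the 10 arrays. Signs of differences that pass no test turned as follows, and the cause was not tested.

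With array weights, Eef2 was at -0.074, Eif2s3 at -0.015, Eif4ebp2 at -0.12, Eif5a at -0.061 and Eif5b at -0.13. Cyclic loess gave Eef1b2 0.35, Eif1ax 0.15, Eif2s2 0.32, Eif3f 0.15 and Eif4e3 over Eif4e -0.049, and quantile scaling Eef1b2 0.12 and Eif2s2 0.074. The mean of probe sets gave Eef2k -0.066, Eif1a 0.55 and Eif3h 0.18. Narrow arrays gave Eef2 -0.95, Eif2s1 -0.33, Eif2s3 -0.59, Eif2s3y 1.58, Eif4a1 -0.91, Eif4e -0.22, Eif4e3 -0.13 and Eif5a -0.75. Without adult replicates 4 and 5, Eef1a1 was at -0.13, Eef2 at -0.96, Eif2s1 at -0.76, Eif2s3 at -0.98, Eif2s3y at 0.78, Eif4a1 at -0.88, Eif4e at -0.62, Eif4e3 at -0.0086 and Eif5a at -0.87.

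Wide arrays gave Eef1akmt1 0.058, Eef1b2 0.79, Eef1g 0.81, Eef2k -0.93, Eif1a 0.76, Eif1ad 0.16, Eif1ax 0.56, Eif2ak3 -0.33, Eif2ak4 0.65, Eif2s2 0.79, Eif3f 0.45, Eif3h 0.34, Eif3i 0.60, Eif4b 0.065, Eif4ebp1 0.52, Eif4ebp2 -1.10, Eif4ebp3 -0.44, Eif4g3 -1.62 and Eif5b -0.54. They also gave Etf1, a release factor, 0.62, Abce1, a ribosome recycling factor, 0.52, Pabpc4 0.82, Eif4g3 over Eif4g1 -1.48 and Eif5a2 over Eif5a -0.81.

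Over the omissions of 1 array the differences ranged from -0.49 to 0.19 for Eif1ax, -0.70 to 0.23 for Eif2ak4, -0.091 to 0.46 for Eif4e3, -0.039 to 0.58 for Eif4ebp3, -0.88 to 0.12 for Eif6 and -0.48 to 0.11 for Eef1b2. They were -1.47 to 0.075 for Eif1a, -0.57 to 0.67 for Eif2s2, -0.51 to 0.41 for Eif4ebp2, -0.12 to 0.87 for Eif4g3, -0.41 to 0.80 for Eif5a and -0.31 to 0.28 for Eif5b. For Eef2 they were -0.55 to 0.48, for Eif2s1 -0.085 to 1.10, for Eif2s3 -0.35 to 0.54, for Eif4a1 -0.24 to 0.87, for Eif4e -0.36 to 0.41, and for Eif4e3 over Eif4e -0.41 to 0.65.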
